A study of Neurospora crassa with 30 samples.

Results

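The genes described here were the 60 Neurospora crassa genes whose transcript level was lowest on cellobiose relative to 9 other carbon sources. They were chosen from 9758 counted genes by their level in CPM (the reads of a gene per 1000000 reads on all genes of a sample). The mean of 3 samples was taken on each carbon source, and a gene's score was log2(lowest of the 9 other means + 1) minus log2(cellobiose mean + 1). Genes had to average at least 5 CPM on each of the 9 other carbon sources, which 6698 genes did after 2 genes of asexual spore formation (eas and con-6) had been left out, and the 60 highest scores were kept. All 60 passed that filter by construction. Because the low level on cellobiose chose the genes, every comparison of cellobiose with another source is given as a description and without a test, and tests were run only among the 9 other carbon sources. The lowest of the 9 other means also entered each score, which is said beside the results it touches.

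All 30 samples were mycelium of the wild-type strain FGSC 2489, grown for 16 h in Vogel's minimal medium with 2% sucrose, washed, and held for 4 h in the same medium with 1 carbon source. There were 3 samples on each of 10 carbon sources. The disaccharides were cellobiose, maltose and trehalose, the monosaccharides were xylose, mannose, fructose and sorbose, and the polyol was glycerol, all at 2 mM. The polysaccharides were avicel (microcrystalline cellulose) and xyloglucan, both given as 1% (w/v) in the methods, while the design text gives avicel as 2%. No mutant or second strain was part of the series, and the samples of a carbon source are described as biological replicates, so p-values measure the spread between them.

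Cellobiose is the glucose disaccharide that cellobiohydrolases release from cellulose. N. crassa takes it up through the cellodextrin transporters CDT-1 and CDT-2 and cleaves it with beta-glucosidases, and in this fungus cellodextrins switch on cellulase genes through the transcription factors CLR-1 and CLR-2. Genes that are low on this sugar have a less familiar biology, and most of the 60 carry no gene name. In filaments of this species, starvation and exposure to air lead to asexual spores (conidia), and mating leads to fruiting bodies (perithecia).

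The libraries held 13018483 to 21925749 reads on genes, and the 3 cellobiose libraries held 17317276 to 21835760. Reads outside genes made up 2.70 to 2.80% of the reads on cellobiose, against 2.43 to 8.79% in the other 27 libraries, and in 7 of the carbon sources replicate 1 had the lower share (2.43 to 3.02%, against 3.86 to 8.79% in replicates 2 and 3). All 3 cellobiose libraries lay within the range of replicate 1, as did those on xyloglucan (2.79 to 3.01%). The labels name no batch, and whether these libraries were prepared alike was not tested. The 8 genes listed for cellulose and cellobiose use summed to 7325 to 21208 CPM on cellobiose. In the other 27 samples their sum had a median of 724 CPM and a highest value of 57782 CPM. Of these genes cdt-1 (a cellodextrin transporter) averaged 2537 ± 602 CPM (SD, n = 3) on cellobiose. Not all were high there, since gh3-4 had its lowest mean on cellobiose (2.70 CPM). That was close to its 3.26 CPM on trehalose, while on avicel it had 520 CPM. The cellobiose mean of clr-1, 157 CPM, lay within its range of other means (98.8 to 355 CPM). Among the 10 genes listed to check the strain, all had reads on cellobiose, including the mating-type gene matA-1 with 91 reads and the non-homologous end-joining genes mus-51 and mus-52 at 49.6 and 46.1 CPM.

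On cellobiose the 60 genes together took 975, 1540 and 1357 CPM in replicates 1, 2 and 3. In the other 27 samples they took 8580 to 26070 CPM, with a median of 15841, so the groups did not overlap. A gene's cellobiose mean was between 0 and 30.5% of the median of its 9 other means, with a median of 9.62%. In 59 of the 60 genes every cellobiose sample lay below every one of the 27 others, against 13.1% of the 6700 genes over the 5 CPM limit, but the rule used this contrast and nothing is read from it. The exception was NCU08491, a hypothetical protein, at 2.42, 9.59 and 4.35 CPM on cellobiose and 8.06 CPM in its lowest other sample, from trehalose. Within replicate 1 alone the scores were 0.70 to 4.29 with a median of 2.00, on values that the rule had used. In bulk samples, fewer cells of a kind and less RNA per cell cannot be told apart.

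**Figure D1:**
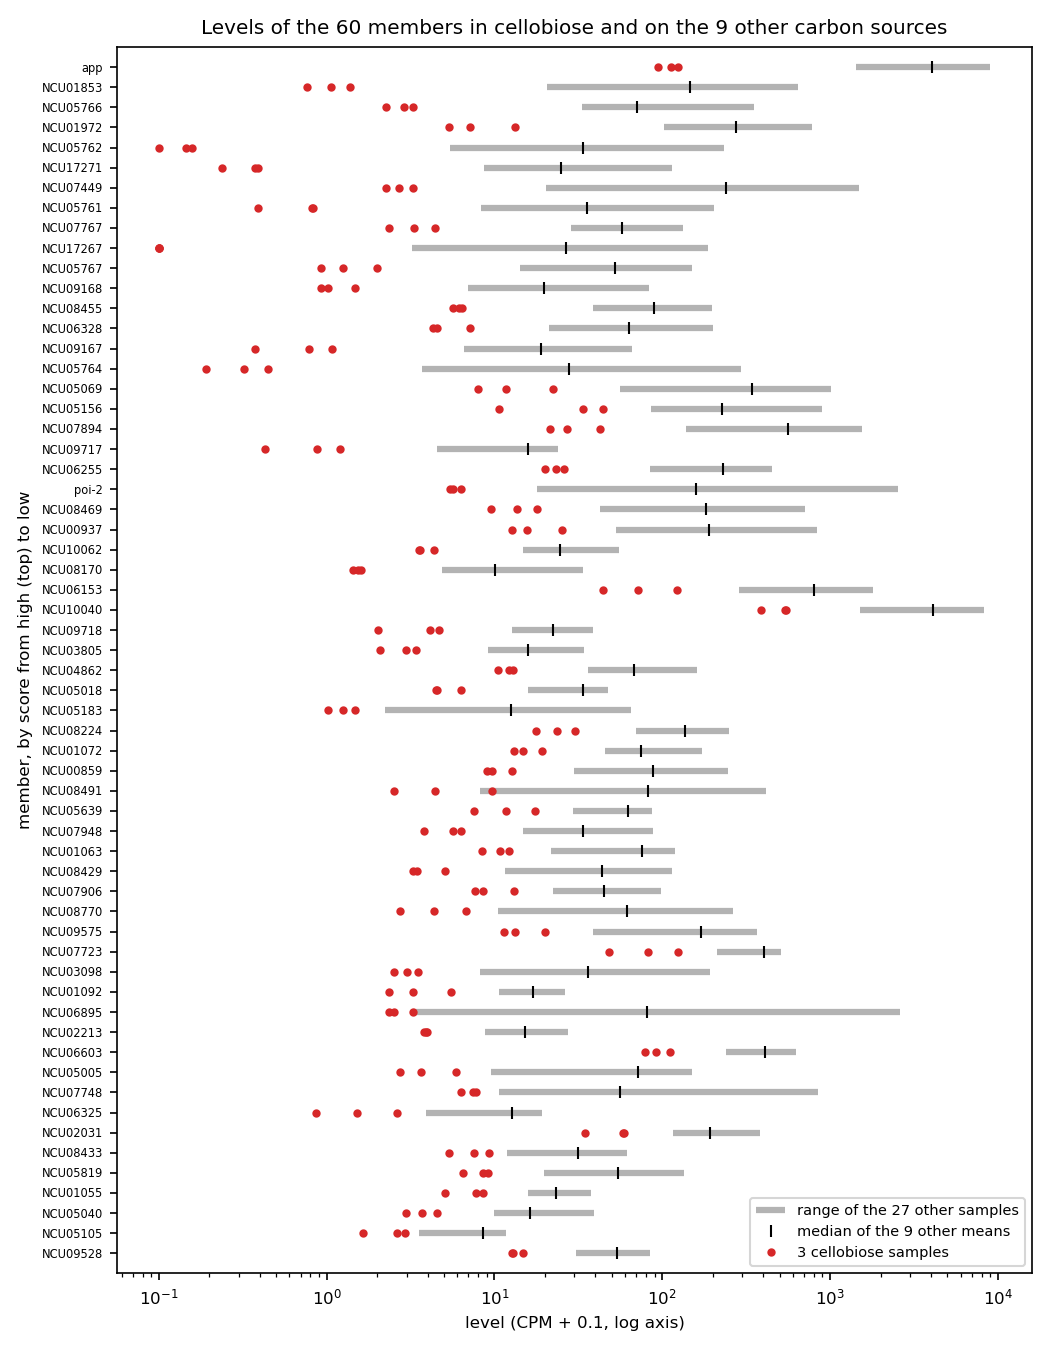
Level of each of the 60 genes (CPM + 0.1, log axis), ordered by score from the top, with red dots for the 3 cellobiose samples, a grey bar for the range of the 27 other samples and a black tick for the median of the 9 other means. The red dots lie left of the grey bar in 59 genes, and in NCU08491 the highest of them (9.59 CPM) falls inside the bar.

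The 60 genes covered a wide range of levels. The cellobiose mean was below 1 CPM in 8 genes, below 10 CPM in 40 and above 50 CPM in 6. Over the 3 cellobiose libraries a gene had 0 to 28358 reads, with a median of 298.5. The cellobiose samples also differed among themselves, since in 44 of the 60 genes (73.3%) replicate 1 was the lowest of the 3, against 39.9% of the 6700 genes over the limit. Without replicate 1 of cellobiose the median score of the 60 genes was 1.70 and the lowest 1.16, again on values that the rule had used. The median of all genes on cellobiose was shifted by -0.15 on the log2 scale in CPM and by 0.03 after TMM scaling, and with TMM-scaled CPM the scores of the 60 genes were 1.13 to 3.92 with a median of 1.68. Scores fell from 3.99 to 1.31, and 26 genes scored over 2. The last 3 genes inside the limit were NCU05040 (1.32), NCU05105 (1.31) and NCU09528 (1.31), and the first 3 outside were NCU08856 (1.31), a myo-inositol oxygenase, NCU09231 (1.31) and NCU05585 (1.28), a quinate transporter of the major facilitator superfamily. Applied to each carbon source in turn, the same score limit was reached by 62 genes for cellobiose, counting the 2 left out, by 6 for avicel, 5 for sorbose, 1 each for fructose, glycerol and maltose, and none for the other 4. That limit came from the cellobiose scores, so the count for cellobiose was fixed by the rule and nothing is read from the difference.

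The highest score belonged to app (NCU04533, chromosome VII, 1539827 to 1540778, NC12 assembly), the abundant perithecial protein gene. Its level on cellobiose was 94.6, 124 and 112 CPM in the 3 replicates. The 27 other samples ran from 1427 CPM in replicate 1 of avicel through a median of 4168 to 9029 CPM in replicate 3 of maltose. The lowest other mean, 1761 ± 454 CPM on fructose (SD, n = 3), was 16.0 times the cellobiose mean of 110.2 ± 14.6 CPM. With 6316 reads over the 3 cellobiose libraries the gene was well measured there, and its highest cellobiose sample lay more than 10-fold below its lowest other sample.

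Of the 60 genes, 8 lay in a single stretch of chromosome VII (3734171 to 3760745, NC12, 26.6 kb) that holds 12 genes in a row from NCU05761 to poi-2 (NCU05768). Its members were NCU05761, NCU05762, NCU17267, NCU05764, NCU17271, NCU05766, NCU05767 and poi-2. The other 4 genes (NCU05763, NCU17268, NCU17269 and NCU17270) missed the limit of 5 CPM on at least 1 other carbon source. In these 4 too every cellobiose sample lay below the 27 others, as in 13.1% of the 6700 genes over the limit. For the 8 members the rule used this contrast, and the ends of the stretch were set by members. The cellobiose means along the stretch were 0 to 5.72 CPM, which was 0 to 3.43% of the mean of the other sources. To the left lay NCU05760, NCU05759 and the pheromone receptor gene pre-2, and to the right NCU05769 and the catalase gene cat-2. None of these neighbours was a member. The mean of cat-2 was well over 100 CPM on every carbon source, but it too was lowest on cellobiose, at 169 CPM against 330 CPM on trehalose. Its highest cellobiose sample (239 CPM) lay below its lowest other sample (278 CPM). For pre-2 the means were 0.949 CPM on cellobiose and 1.22 CPM on trehalose, its next lowest source. NCU05759, NCU05760 and NCU05769 had almost no reads on any source. Beyond cat-2, NCU05771 was not lowest on cellobiose (26.3 CPM, against 15.9 CPM on trehalose).

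Reads on cellobiose were few across the stretch but not absent from it. NCU17267 had 0 reads in the 3 cellobiose libraries, which allows up to 3 reads or 0.0523 CPM over the 3 libraries together. Its lowest other mean was 7.03 CPM, on xyloglucan, at least 134-fold higher than that limit. NCU05762 had 2 reads on cellobiose (0, 0.0577 and 0.0458 CPM in the 3 replicates, with an exact Poisson 95% interval of 0.00422 to 0.126 CPM for their sum, which covers counting error only), against 5.35 to 234 CPM in the other samples. NCU05766 stood at 2.14, 3.18 and 2.79 CPM on cellobiose and at 33.2 to 354 CPM elsewhere. NCU05763 and NCU17267 share 48 bases of their annotated spans, so that reads there could not be assigned to either with certainty.

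**Figure D2:**
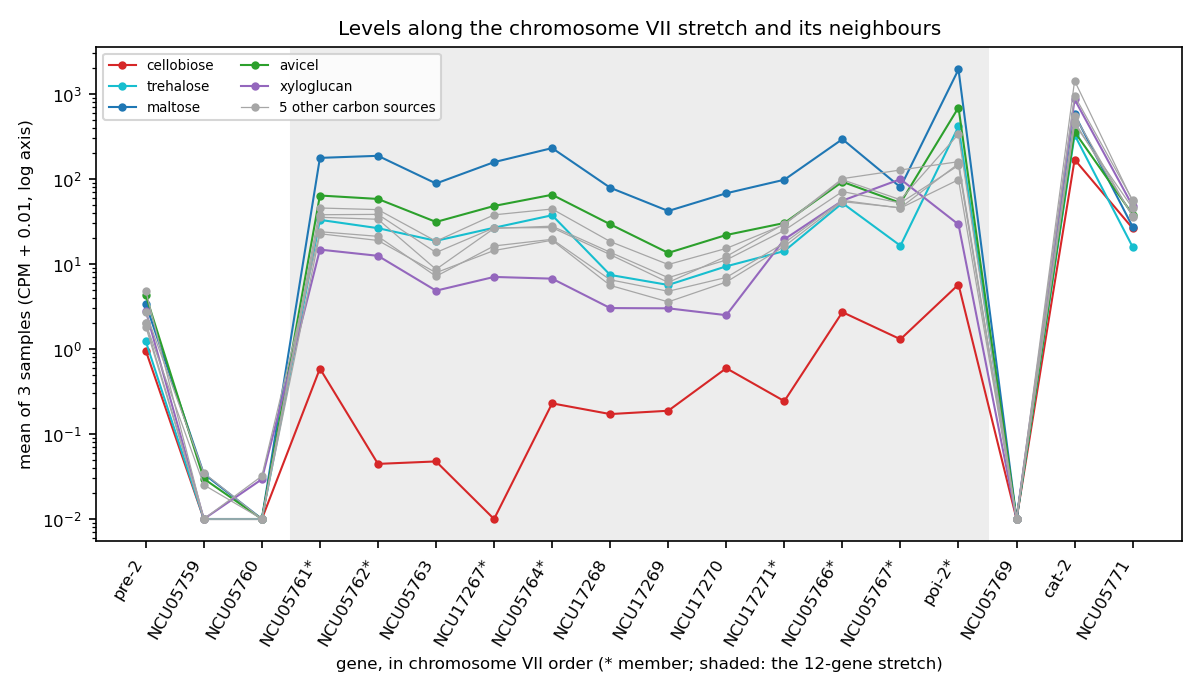
Mean level of 3 samples (CPM + 0.01, log axis) for each gene in chromosome order, from pre-2 to the gene beyond cat-2, with 1 line per carbon source, the 12-gene stretch shaded and members marked with an asterisk. Cellobiose is lowest at all 12 shaded genes, maltose is highest at 11 of them, and xyloglucan is the lowest of the 9 other sources at 9.

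Among the 9 other carbon sources the stretch also moved as a block. Maltose gave the highest mean in 11 of the 12 genes, and of the 9 other sources xyloglucan gave the lowest mean in 9 genes and trehalose in 3. The exception at the top was NCU05767, highest on mannose. Over the 9 means, Pearson's r between pairs of the 8 stretch members had a median of 0.90, against 0.26 between pairs of the other 52 members, and without NCU05767 it was 0.93 with a lowest value of 0.68. NCU05767 itself had a median r of 0.11 with the other 7. These are descriptions over 9 points that share their libraries. NCU05761 and NCU05762 were the most alike pair of all 60 genes, with r = 0.997.

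The stretch ended in poi-2, the plenty of it gene, which is known from sexual development in N. crassa. Its level on cellobiose was 6.21, 5.37 and 5.59 CPM. On xyloglucan, its next lowest source, it was 35.7, 33.8 and 17.9 CPM, and on maltose, its highest, it was 2528, 2109 and 1184 CPM. Trehalose, the other disaccharide made only of glucose, gave 315, 681 and 248 CPM. The 3 cellobiose samples were thus below, and tighter than, those of any other source, and the spread on maltose did not reach down to that on trehalose.

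NCU05767 encodes a protein with a Zn2Cys6 zinc finger, the domain of a large family of fungal transcription factors, and the study's annotation names it PRO1A. It stood at 0.825, 1.91 and 1.14 CPM on cellobiose. Trehalose followed with 15.2, 14.1 and 19.8 CPM, and mannose was highest with 150, 88.6 and 144 CPM. No sample of trehalose overlapped a sample of any of the 8 sources above it, so that this gene had 3 separate levels, on cellobiose, on trehalose and on the rest.

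**Figure D3:**
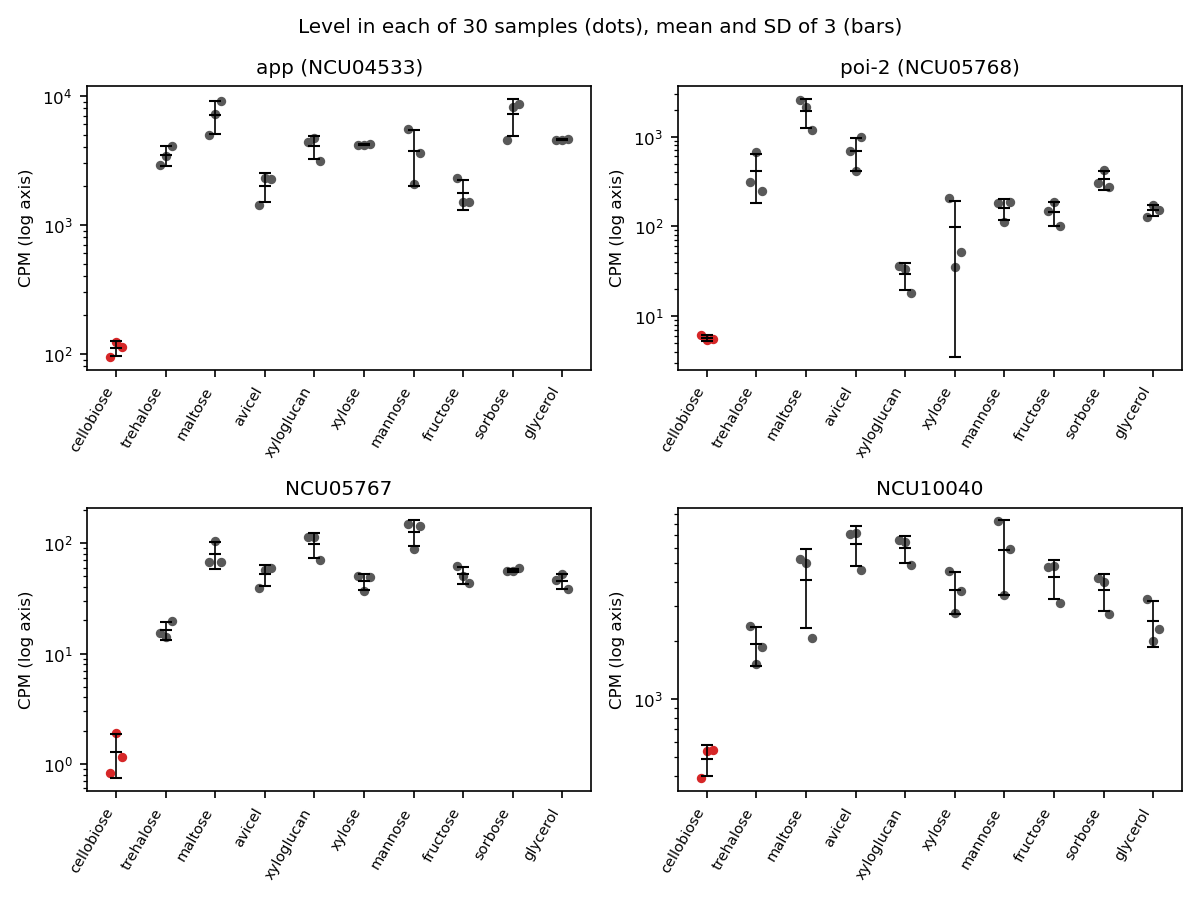
CPM (log axis) of app, poi-2, NCU05767 and NCU10040 in each of the 30 samples, as dots, with the mean and SD of 3 samples as bars and cellobiose in red. The cellobiose samples sit lowest in each panel, at 94.6 to 124 CPM for app, 5.37 to 6.21 for poi-2, 0.825 to 1.91 for NCU05767 and 390 to 547 for NCU10040.

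Carbohydrate-active enzymes made up 6 of the 60 genes, with 5 glycoside hydrolases among them. Their cellobiose means lay between 1.15 and 17.8 CPM, at 8.05 to 27.2% of their median on other sources. NCU00937, a beta-glucuronidase of family GH79, stood at 12.6, 25.3 and 15.6 CPM on cellobiose, 60.3, 52.8 and 120 CPM on trehalose and 435, 144 and 836 CPM on mannose. NCU03098 (GH15, the family of glucoamylases) had 2.91, 3.41 and 2.43 CPM on cellobiose, 8.06, 8.84 and 12.95 CPM on trehalose and 178, 76.3 and 193 CPM on mannose. In both genes trehalose gave the lowest of the 9 other means, which entered the score, and mannose gave the highest. The order of cellobiose, trehalose and mannose was thus set by the choice of sources shown. Samples of these sources did not overlap in either gene.

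NCU05819 (GH125, alpha-mannosidases) averaged 7.99 ± 1.38 CPM on cellobiose, 21.9 CPM on sorbose and 109.6 CPM on mannose. NCU05183 (GH128) was the sorbose-high gene of this group, at 1.37, 0.924 and 1.14 CPM on cellobiose and 56.7, 57.4 and 64.7 CPM on sorbose. NCU05105, annotated as a glucan endo-1,3-beta-glucosidase of GH55, had the smallest range of all 60 genes over the 9 other sources, 7.21 CPM on trehalose to 10.9 CPM on xyloglucan, and 2.31 ± 0.67 CPM on cellobiose. NCU02213, a glycosyltransferase of family GT31, was even on cellobiose at 3.79, 3.70 and 3.85 CPM and ran from 8.71 to 27.3 CPM elsewhere.

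Enzymes of redox and lipid chemistry formed the next group. NCU06895, a cytochrome P450, varied most over the other 9 sources, with its highest mean 208 times its lowest. It stood at 2.42, 3.18 and 2.24 CPM on cellobiose and at 4.86, 3.18 and 19.1 CPM on trehalose, so that the lowest trehalose sample met the highest cellobiose sample to the digits given. On xyloglucan it reached 1646, 1938 and 2053 CPM, and on mannose 2244, 462 and 2599 CPM. NCU05069, an FAD-dependent oxidoreductase, had 7.86, 22.1 and 11.7 CPM on cellobiose and 56.1 to 1013 CPM elsewhere. NCU09575, a sterol esterase, which splits fatty acid esters of sterols, had 11.3, 20.04 and 13.2 CPM on cellobiose and 38.6 to 368 CPM elsewhere.

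The remaining named enzymes stood out less. NCU07723, annotated as a norsolorinic acid reductase, and NCU06603, of the ThiJ/PfpI family, remained at 85.1 ± 38.5 and 93.7 ± 15.8 CPM on cellobiose, against lowest other means of 242 and 261 CPM. NCU01092, a 3-oxoacyl-(acyl-carrier-protein) reductase that is a step of fatty acid synthesis, stood at 3.61 ± 1.64 CPM on cellobiose against a lowest other mean of 11.8 CPM. NCU01072 (class II aldolase/adducin domain), NCU07906 (methyltransferase), NCU09718 (an asparaginase acting on glycosylated asparagine) and NCU05005 (HHE domain) were at 15.6, 9.65, 3.51 and 4.01 CPM on cellobiose, with lowest other means of 53.3, 30.2, 15.3 and 12.7 CPM.

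Of the 60 genes, 2 were annotated as transporters. NCU07894, an oligopeptide transporter, stood at 21.2, 27.1 and 42.5 CPM on cellobiose, at 197, 138 and 147 CPM on xylose and at 1549, 1357 and 1419 CPM on sorbose. NCU01055, a chromate ion transporter, was the gene with the highest relative level on cellobiose, 7.02 ± 1.84 CPM or 30.5% of its median elsewhere. For NCU07894 that share was 5.36%.

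Genes annotated as hypothetical were the largest group, with 27 genes. They include NCU05183 (GH128) and NCU02213 (GT31), described above among the carbohydrate-active enzymes. A further 9 genes had neither a symbol, a place in the stretch nor an entry in the annotation tables used here. The highest level among the hypothetical genes was that of NCU10040, at 390, 539 and 547 CPM on cellobiose and 1518 to 8305 CPM elsewhere. Together app and NCU10040 took 40.1 to 61.4% of the summed level of the 60 genes in each of the 30 samples. NCU01853 (chromosome I, 2256727 to 2259390), second by score, stood at 0.660, 1.27 and 0.962 CPM on cellobiose, 31.5, 20.5 and 34.2 CPM on trehalose and 537, 153 and 641 CPM on mannose. NCU01972, NCU07449 and NCU07767, which complete the 10 highest scores with the stretch genes, had cellobiose samples of 5.28 to 13.1, 2.14 to 3.18 and 2.25 to 4.33 CPM and lowest other samples of 102, 20.3 and 28.5 CPM. In none of these did a cellobiose sample overlap another.

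Chromosome VII held 17 of the 60 genes, 1.62% of its 1047 genes, against 0.298 to 0.709% on the other 6 chromosomes. Of these 17 genes, 8 were the members of the single stretch described above. Outside the stretch, adjacent members occurred as 2 pairs, NCU09167 with NCU09168 on chromosome III (230217 to 236971), both hypothetical, and NCU09718 with NCU09717 on chromosome VII (1368619 to 1371973). The first pair moved together, with r = 0.97 over the 9 other means, and both were highest in sorbose. Among single members, NCU08770 lay next to con-6, 699 bases away on chromosome III, and NCU08455 lay 4546 bases from eas on chromosome II, with 1 protein-coding gene between them. Both con-6 and eas were left out by the rule, so 1 member lay next to an omitted gene and 1 lay 1 gene away. In all, 15 of the 60 genes overlapped another annotated gene, by up to 1905 bases in NCU07894, and the sources used here do not say whether strand was used in counting, so reads in the shared bases cannot be divided between both genes.

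Over the 9 other carbon sources the 60 genes spread more widely than most. The ratio of the highest to the lowest mean had a median of 3.99, from 1.52 in NCU05105 to 208 in NCU06895, against a median of 2.07 for the 6700 genes over the limit. In edgeR's quasi-likelihood test over these 27 samples, a gene was called when its largest fold change between sources was above 2 and its Benjamini-Hochberg adjusted p under 0.01. By that rule 52 of the 60 genes (86.7%) varied, against 57% of the 8493 genes tested and 52% of the 6700 over the limit. Since the lowest of the 9 means entered the score, this share is a description too. The 8 that were not called were NCU09718, NCU07906, NCU07723, NCU01092, NCU06603, NCU08433, NCU01055 and NCU05105, of which all but NCU08433 carry a named product.

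Mannose gave the highest mean of the 9 in 15 genes (25.0%), sorbose in 14 (23.3%) and maltose in 10 (16.7%), against 11.3%, 11.6% and 10.3% of the 6700 genes over the limit. Avicel was highest in 7 genes (11.7%, against 10.4%), xyloglucan in 5 (8.33%, against 13.9%), glycerol in 4 (6.67%, against 7.31%), xylose in 3 (5%, against 5.54%) and fructose in 2 (3.33%, against 11.3%). Trehalose was highest in none of the 60 genes, against 18.3% of the 6700. The lowest mean of the 9 came from trehalose in 32 genes (53.3%), against 27.8% of the 6700. Xyloglucan was lowest in 8 genes (13.3%, against 9.88%), fructose in 7 (11.7%, against 7.34%), xylose in 6 (10.0%, against 3.40%), sorbose in 4 (6.67%, against 6.75%), avicel in 2 (3.33%, against 18.0%) and glycerol in 1 (1.67%, against 4.78%). Maltose and mannose were lowest in none, against 4.31% and 17.8% of the 6700. The lowest of the 9 means entered the score, and all these counts are a description. Trehalose was also where the members summed lowest after cellobiose, at 9238 ± 805 CPM (n = 3) against 12514 CPM on fructose and 20919 CPM on mannose, and the median gene stood 4.55 times higher on trehalose than on cellobiose among the 59 genes with reads there.

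**Figure D4:**
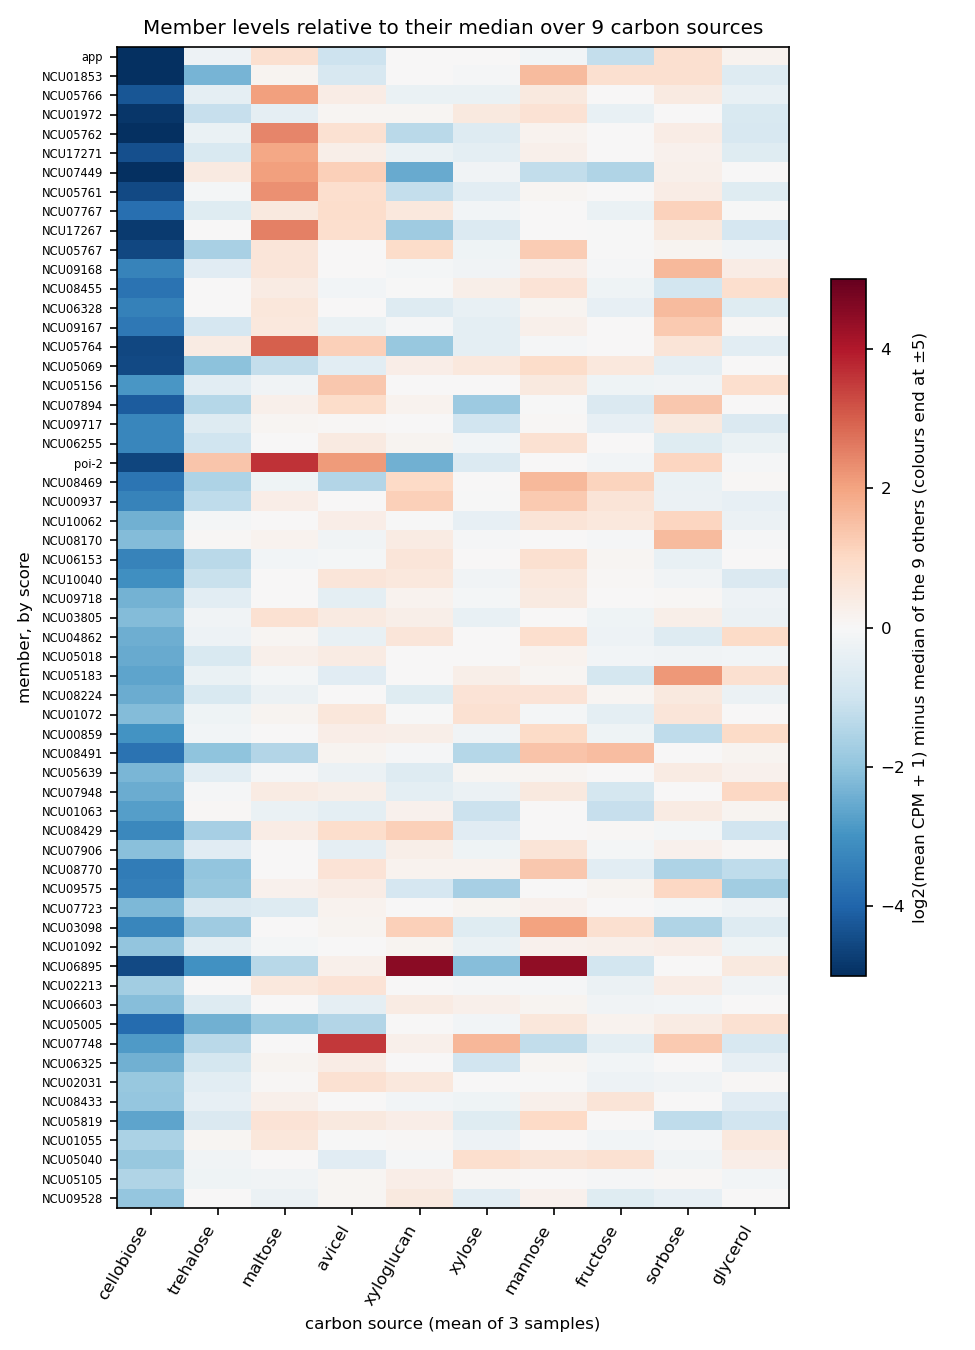
Heat map of log2(mean CPM + 1) of each of the 60 genes on the 10 carbon sources, minus the gene's median over the 9 sources other than cellobiose, with genes ordered by score and colours ending at 5 either way. The cellobiose column is blue in all 60 genes, the trehalose column is the lowest of the 9 others in 32, and the strongest reds are NCU06895 on xyloglucan and mannose and poi-2 on maltose.

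Maltose and trehalose are both disaccharides of 2 glucose units, as cellobiose is, and differ in the bond between them. The fit between these 2 sources took in no cellobiose sample, but the trehalose mean was the lowest of the 9, and so part of the score, in 32 of the 60 genes, and the maltose mean in none. The calls are therefore a description and nothing is read from their distance to the share of all genes. By edgeR, 20 of the 60 genes (33.3%) were called higher on maltose, with log2 fold changes of 1.05 to 2.68, and 2.46% of all 8493 genes and 1.48% of the 6700 over the 5 CPM limit were. None was called lower on maltose by edgeR's quasi-likelihood test or by DESeq2, and 2.43% of all genes and 1.97% of the 6700 were by edgeR. In the 28 genes whose lowest mean came from a source other than trehalose, 8 (28.6%) were called higher, the median log2 fold change was 0.39 and 5 values were below 0. Of the 7 members with a negative log2 fold change, 1 had an unadjusted p under 0.05. The median log2 fold change was 0.79 for the 60 genes and -0.04 for all genes. Scaled by library size alone, the calls over all genes shifted from 209 higher and 206 lower to 335 and 115, and those of the 60 genes to 24 and 0.

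The chromosome VII stretch supplied 8 of the 20. All 8 of its members were called, and so were the 4 genes between them, with log2 fold changes of 2.07 to 3.25 over the 12 genes. NCU05762 had 15.4, 39.1 and 24.6 CPM on trehalose and 234, 190 and 137 CPM on maltose, a log2 fold change of 2.68 (SE 0.48, edgeR adjusted p = 0.00031). NCU17271 went from 8.61, 20.9 and 13.02 CPM to 115, 102 and 76.9 CPM, with a log2 fold change of 2.64, which is given without a test because its trehalose mean entered the score. NCU05764 went from 20.6, 65.4 and 26.2 CPM to 293, 244 and 155 CPM, with a log2 fold change of 2.47 (SE 0.50, edgeR adjusted p = 0.00077). In each of the 3 genes the maltose samples lay above the trehalose samples with a wide gap.

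Outside the stretch 12 of the other 52 genes (23.1%) were called higher on maltose. They were NCU01853, NCU09575 (sterol esterase), NCU08429, NCU08770, NCU03098 (GH15), NCU07894 (oligopeptide transporter), NCU00937 (GH79), NCU07449, NCU05819 (GH125), NCU07748, NCU08469 and NCU06153. NCU01853 had the largest change of these, from 31.5, 20.5 and 34.2 CPM on trehalose to 211, 118 and 150 CPM on maltose (log2 fold change 2.33). For the sterol esterase gene NCU09575 the values were 39.9, 38.6 and 55.8 CPM on trehalose and 214, 258 and 117 CPM on maltose (log2 fold change 1.98). In both genes the 2 sets of samples were separate, and 3 of the 6 carbohydrate-active enzyme genes were among the 12.

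**Figure D5:**
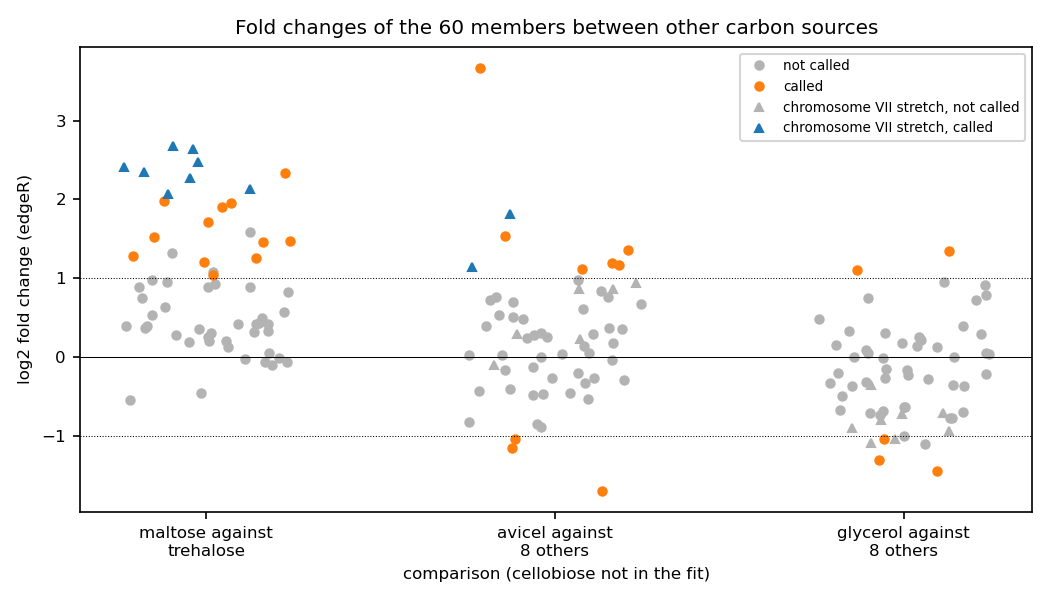
Log2 fold changes (edgeR) of the 60 genes in 3 comparisons without cellobiose, 1 point per gene, with triangles for the 8 members in the chromosome VII stretch, colour for genes called and dotted lines at a fold of 2 in either direction. Between maltose and trehalose 20 genes are called higher and none lower, on avicel 8 higher and 3 lower, and on glycerol 2 higher and 3 lower.

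Avicel is the substrate from which cellobiose is released. Against the mean of the 8 other sources, 8 of the 60 genes (13.3%) were higher on avicel and 3 (5%) lower, while 6.12% of all genes tested were higher and 3.33% lower. Among the 6700 genes over the 5 CPM limit the shares were 3.46% and 3.21%. The lowest of the 9 means entered the score and is part of this comparison in every gene. Avicel gave that mean in 2 of the 60 genes, against 18.0% of the 6700. The calls on avicel are therefore a description, and nothing is read from their distance to the share of all genes. NCU07748, a hypothetical protein, stood at 589, 518 and 846 CPM on avicel, at 10.5 to 248 CPM on the 8 others and at 6.21, 7.33 and 7.65 CPM on cellobiose. Its log2 fold change on avicel was 3.67 (SE 0.17). No avicel sample overlapped another source.

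In the same comparison poi-2, at 683, 414 and 981 CPM on avicel, had a log2 fold change of 1.82 (SE 0.32). NCU07449, a hypothetical protein, had 431, 542 and 661 CPM on avicel and 1.54 (SE 0.23). Both were nonetheless higher still on maltose. The 5 others called higher were NCU05156, NCU07894, NCU08770, NCU05764 and NCU08429, and of the 12 genes of the stretch 6 were called.

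Genes lower on avicel were few. NCU08469, a hypothetical protein, had 53.1, 72.8 and 67.1 CPM on avicel and a log2 fold change of -1.69 (SE 0.24). NCU05005 (HHE domain) had 27.7, 28.2 and 20.1 CPM and -1.15 (SE 0.27). For app the log2 fold change was -1.04 (SE 0.24), close to the fold limit of 2, and DESeq2 put it at -0.98, outside the call. It also left the call in 17 of the 27 fits without 1 library, with values of -1.13 to -0.80 over the 27, and NCU05005 did so without replicate 3 of avicel (-0.99).

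On glycerol, the only source that is not a sugar or a polymer of sugars, 2 of the 60 genes were higher and 3 lower than on the mean of the 8 others, against 3.4% and 1.94% of all genes and 2.04% and 1.34% of the 6700 over the 5 CPM limit. Here too the lowest of the 9 means, which entered the score, is part of the comparison in every gene. The calls on glycerol are therefore a description as well. NCU05005 was the higher one with the larger change, at 106, 149 and 108 CPM on glycerol with a log2 fold change of 1.34 (SE 0.22). NCU07948 followed with 88.4, 47.5 and 75.9 CPM and 1.11 (SE 0.28). The lower genes were the sterol esterase gene NCU09575 (50.2, 61.5 and 39.6 CPM, log2 fold change -1.44), NCU07748 (28.4, 36.7 and 30.1 CPM, -1.30) and NCU08429 (19.0, 25.3 and 21.9 CPM, -1.04). With so few calls, the count on glycerol turned on single samples, with 1 gene higher without replicate 1 or 3 of glycerol and 4 without replicate 2. NCU07948 lost its call without replicate 1 or 3 of glycerol (0.89 and 1.03) and NCU08429 without replicate 1 (-0.96). The count of lower genes was 5 without replicate 1 of fructose, replicate 2 of mannose or replicate 1 of xylose.

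The 10 listed conidiation genes summed to 3473 to 5494 CPM on cellobiose and to 8383 to 53464 CPM in the other 27 samples, without overlap. Of the 10, 7 were lowest on cellobiose, with a median score of 0.38, and none had 0 reads there. Of the 10 genes listed to check the strain 4 were lowest on cellobiose, as were 26.9% of the 6700 genes over the limit. The 2 left out by the rule were lowest by a wide margin, the hydrophobin gene eas at 1064 ± 207 CPM against 5421 CPM on sorbose and con-6 at 56.9 ± 11.1 CPM against 444 CPM on trehalose (n = 3). The others were closer to their next source, for example con-8 at 124 ± 21 CPM against 212 CPM on trehalose. On cellobiose csp-1, csp-2 and ccg-1 were not lowest. The largest parts of the sum on cellobiose were ccg-1, at 2840 CPM against 2798 CPM on trehalose, and eas, which the rule left out. Between maltose and trehalose con-6, con-8 and con-10 were called higher on maltose, on avicel con-6 and acon-3 were called higher, and on glycerol con-10 was called lower. All 10 varied over the 9 other sources. Whether conidiation has a part in the low level of the 60 genes was not tested.

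The light and clock genes overlapped between the groups. Of the 8 listed, 3 were lowest on cellobiose, and their sum was 3246 to 3744 CPM there and 3283 to 5726 CPM elsewhere. Over the 9 other sources 3 of the 8 were called as varying. The clock gene frq averaged 270 ± 12 CPM on cellobiose, above its 239 CPM on sorbose, and none of the 8 was a member.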

How the data were processed

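Gene counts were deposited by the authors as whole-number counts per gene and sample. According to the methods and the submitters' processing notes, reads were called with CASAVA 1.8, kept when all bases had a quality above 22, mapped with TopHat2 2.0.4 to the transcripts of OR74A v12 and counted with HTSeq 0.6.0, and the authors' own tests used DESeq2 1.10.1. The 5 summary lines without a gene were left out. CPM, scores and levels were computed in Python 3.11.15 without further scaling. The 27 samples without cellobiose were fitted in edgeR 4.0.16 (quasi-likelihood, TMM, filterByExpr, 8493 genes), with DESeq2 1.42.0 as an alternative. The fit was tested on simulated data with known changes. Names and positions came from RefSeq (NC12), which matched 9757 of 9758 genes and all 60 members, and from the study's annotation tables. The members and gene lists were chosen with earlier results of these data known. The genes named were the 10 highest scores, those beside the limit, those with a symbol or in runs, and the 3 largest changes each way per comparison. Genes named beyond these, by annotation or as calls, were chosen after their values were seen.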

Additional observations from a re-analysis of the deposited data

How the results depend on the processing

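The choice of genes depended most on 2 settings. With a minimum mean of 20 CPM, 32 of the 60 genes were retained, which is the number of members above that limit, and with the mean of the 9 other sources as reference 36 were. Leaving out 1 replicate number retained 53 to 54. Under the other choices 51 to 58 of the 60 remained, and with replicate 1 alone, an alternative added after seeing the data, 45.

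The count of genes lower on glycerol was 3 and became 5 with DESeq2. Leaving out each of the 27 libraries in turn gave 1 to 4 genes higher and 3 to 5 lower on glycerol, 7 to 11 higher and 2 to 3 lower on avicel, 14 to 23 higher on maltose than on trehalose, 0 lower, and 49 to 54 that varied. Of the refitted fold changes of single genes, 426 kept their call and 22 lost it, most of them app on avicel (-1.13 to -0.80 with a library left out), and none changed sign.

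Same-numbered samples did not all deviate together (mean r 0.11 over 135 pairs, from -0.37 to 0.71, 63 above 0.1), so the numbers were not taken as pairs. With a replicate block the calls were 52 that varied, 8 higher and 3 lower on avicel, 20 higher and 0 lower on maltose, and 2 higher and 4 lower on glycerol. Precision was limited by counting for the 8 genes below 1 CPM on cellobiose and by 3 samples per source. Replicates differed by more than sampling noise in every pair (lowest chi-square per degree of freedom 5.07).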
